A study of Mus musculus with 14 samples.

Results

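The 41 genes described here encode the contractile apparatus of skeletal muscle, its calcium handling and energy supply, and the transcription factors that drive muscle differentiation. They were taken by gene symbol from the 24421 entries of the deposited count tables, and all 41 were found. Myf5 had no count in any library. The study compared transplanted mouse gastric tumours that differ in genotype and in the site of growth, as its title and labels give it. Each of the 12 samples was a piece of tumour of about 1 cm3, taken 2 months after transplantation, from which polyA RNA was sequenced in bulk. There were 3 libraries each of orthotopic TMPC tumours, subcutaneous TMPC tumours, subcutaneous TMP tumours and subcutaneous TM tumours. The labels use TM, TMP and TMPC as names of tumour types without spelling out the alleles. They give no strain, age or sex of the recipient mice and do not say that the 3 libraries of a group come from different mice. All p-values below therefore speak of the spread among these libraries alone, which may be technical. All 4 groups are transplants, and each library holds the tumour cells together with whatever host tissue was cut with them.

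Skeletal muscle contracts when myosin heads of the thick filament pull on actin of the thin filament, within repeated units called sarcomeres that are bounded by Z-discs. Calcium released from the sarcoplasmic reticulum binds troponin and uncovers the binding sites on actin. Fast and slow fibres use different isoforms of myosin and troponin, and the transcription factors Myod1, Myf5, Myog and Myf6 commit precursor cells to the muscle fate and switch these genes on. In the wall of the stomach the muscle is smooth muscle, which uses other isoforms, whereas a sheet of skeletal muscle underlies the skin of the mouse flank.

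The libraries held between 16584781 and 21107310 counts each. Levels are given as CPM, counts scaled to library size with TMM factors, and 3 counts correspond to between 0.128 and 0.207 CPM. Several libraries stood apart from their group. Subcutaneous TM replicate 2 had a summed level of 8826 CPM over 11 adipocyte markers, against 19.4 and 22.7 CPM in the other TM libraries, and 244 CPM over 7 epithelial markers, against 4000 and 4314 CPM. Orthotopic TMPC replicate 3 had 8391 CPM over 7 liver markers, against 47.3 and 43.0 CPM in the other orthotopic libraries. Subcutaneous TMPC replicate 1 had 1017 CPM over the epithelial markers, against 2426 and 3384 CPM in the other subcutaneous TMPC libraries, and 738 CPM over 8 keratinocyte markers, against 2812 and 5847 CPM. As a check of the gastric label, 9 gastric epithelium markers summed to between 3504 and 6151 CPM in orthotopic tumours and to between 0.519 and 10.9 CPM in the 9 subcutaneous ones. In all subcutaneous TMPC and in all TMP tumours 4 of the 9 had no count, Gkn2, Pgc and Cldn18 among them. The counts of the 41 members called in each comparison are given below with and without the libraries that move them, and those of the other gene lists were not recomputed.

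The stretch before the start of a gene is where muscle transcription factors are known to act, and 4 such stretches are shown for members that move in the results below. They are the 250 bases upstream of the RefSeq start sites in GRCm38.p6, written 5′ to 3′ on the strand of the gene, and none holds an exon of its gene. Capitals mark E-boxes with the letters CANNTG, the core bound by Myod1 and Myog, as well as CArG boxes and matches to the MEF2 consensus, on either strand. Acta1 lies on the minus strand at chr8:123894776-123895025, Mylpf on the plus strand at chr7:127211358-127211607, Klhl41 on the plus strand at chr2:69669870-69670119 and Myh7 on the minus strand at chr14:54994627-54994876.
Acta1: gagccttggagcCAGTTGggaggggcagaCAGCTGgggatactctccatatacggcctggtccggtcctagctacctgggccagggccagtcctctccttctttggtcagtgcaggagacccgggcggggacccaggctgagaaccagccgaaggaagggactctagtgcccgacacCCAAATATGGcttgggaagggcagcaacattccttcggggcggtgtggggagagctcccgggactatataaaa
Mylpf: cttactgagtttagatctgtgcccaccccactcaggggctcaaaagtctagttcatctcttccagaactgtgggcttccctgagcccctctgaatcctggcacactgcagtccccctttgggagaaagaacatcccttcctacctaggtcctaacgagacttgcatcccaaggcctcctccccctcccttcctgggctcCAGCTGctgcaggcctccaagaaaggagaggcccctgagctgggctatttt
Klhl41: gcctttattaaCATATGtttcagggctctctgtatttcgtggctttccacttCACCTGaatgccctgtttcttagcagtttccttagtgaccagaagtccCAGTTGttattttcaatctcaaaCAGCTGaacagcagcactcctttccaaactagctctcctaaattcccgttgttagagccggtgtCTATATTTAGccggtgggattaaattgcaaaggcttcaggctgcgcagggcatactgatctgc
Myh7: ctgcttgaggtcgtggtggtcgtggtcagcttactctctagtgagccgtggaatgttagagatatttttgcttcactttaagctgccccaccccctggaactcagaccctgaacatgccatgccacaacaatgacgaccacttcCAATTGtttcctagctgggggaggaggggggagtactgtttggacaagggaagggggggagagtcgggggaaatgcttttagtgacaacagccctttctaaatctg
Acta1, the skeletal muscle actin, had 2 E-boxes and 1 CArG box in this window. Mylpf had 1 E-box, Klhl41 had 4 E-boxes and 1 match to the MEF2 consensus, and Myh7 had 1 E-box. RefSeq gave a window for 32 of the 41 genes, with 37 windows in all because some genes have several start sites. An E-box was found in 30 of these 37 windows (81.1%) and in 66.2% of all 32851 windows of the same length. The form CAGCTG, which is a subset of CANNTG, was found in 17 of 37 windows (45.9%) and in 13.0% of all windows. A CArG box stood in 4 windows of the members (10.8%) and in 1.47% of all windows, and the MEF2 consensus in 5 (13.5%) and in 2.92%. These matches are letters in a window and say nothing of whether a factor was bound.

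The muscle genes were low in all 12 tumours and were highest in 3 of them. Their summed level was 68.3, 50.1 and 51.4 CPM in orthotopic TMPC tumours, 128, 573 and 414 CPM in subcutaneous TMPC tumours, 92.7, 454 and 65.8 CPM in subcutaneous TMP tumours and 67.4, 70.7 and 50.1 CPM in subcutaneous TM tumours. Subcutaneous TMPC replicates 2 and 3 and subcutaneous TMP replicate 2 were far above the other 9 libraries (the muscle-high libraries below), while TMPC replicate 1 lay nearer to the rest. At most 0.055% of the counts of a library fell on the 41 genes. In bulk tissue, fewer muscle cells and less RNA per cell cannot be told apart.

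**Figure D1:**
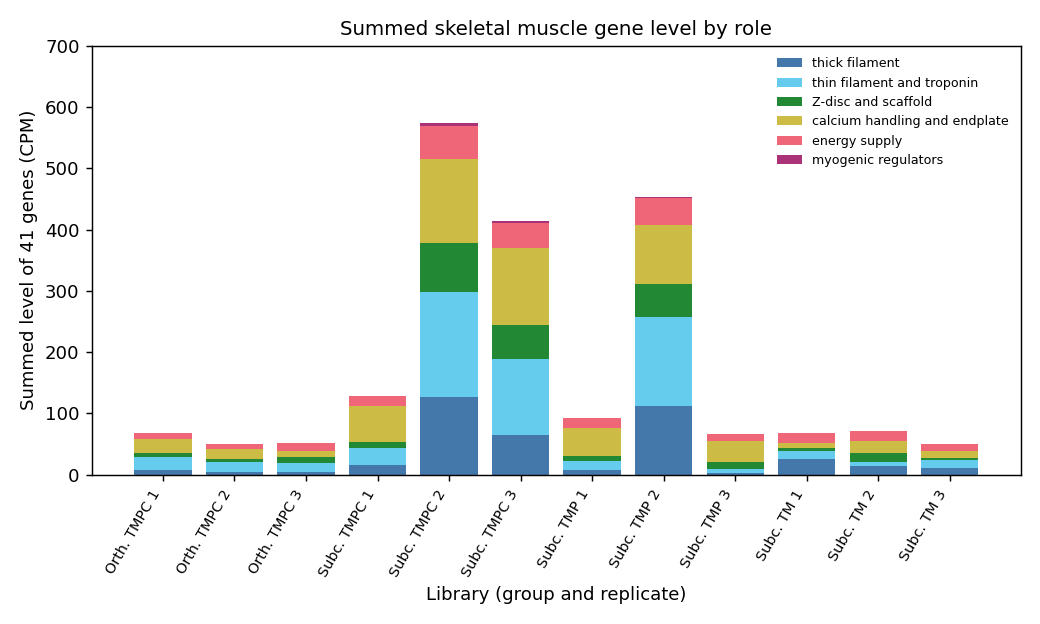
Summed level in CPM (vertical axis, linear from 0) of the 41 skeletal muscle genes in each of the 12 libraries (horizontal axis), with bars stacked by role. Subcutaneous TMPC replicates 2 and 3 and TMP replicate 2 reach 573, 414 and 454 CPM, and no other library passes 128 CPM.

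The same 3 libraries were the 3 highest for 23 of the 41 members (56.1%), a set of libraries singled out after the values were seen. Over all 15880 genes with sufficient counts in the 12 libraries, 215 (1.35%) had these 3 libraries on top. The pattern ran through every role, with 5 of 10 thick filament genes, 4 of 8 thin filament genes, 4 of 6 Z-disc and scaffold genes, 4 of 7 calcium and endplate genes, 3 of 5 energy genes and 3 of 5 regulators. Among members above the floor of 3 counts, the ratio of subcutaneous TMPC replicate 2 to replicate 1 had a median of 5.53 and exceeded 1 in 33 of 33 genes. The ratio of TMPC replicate 3 to replicate 1 had a median of 2.996 and exceeded 1 in 29 of 33. The ratio of TMP replicate 2 to TMP replicate 1 had a median of 6.56 and exceeded 1 in 31 of 33. The ratio of TMP replicate 2 to TMP replicate 3 had a median of 9.17 and exceeded 1 in 24 of 25. Because the 3 libraries were picked by the levels of these same genes, the ratios describe the members and test nothing. The share of all genes with such ratios above 1 was not computed.

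**Figure D2:**
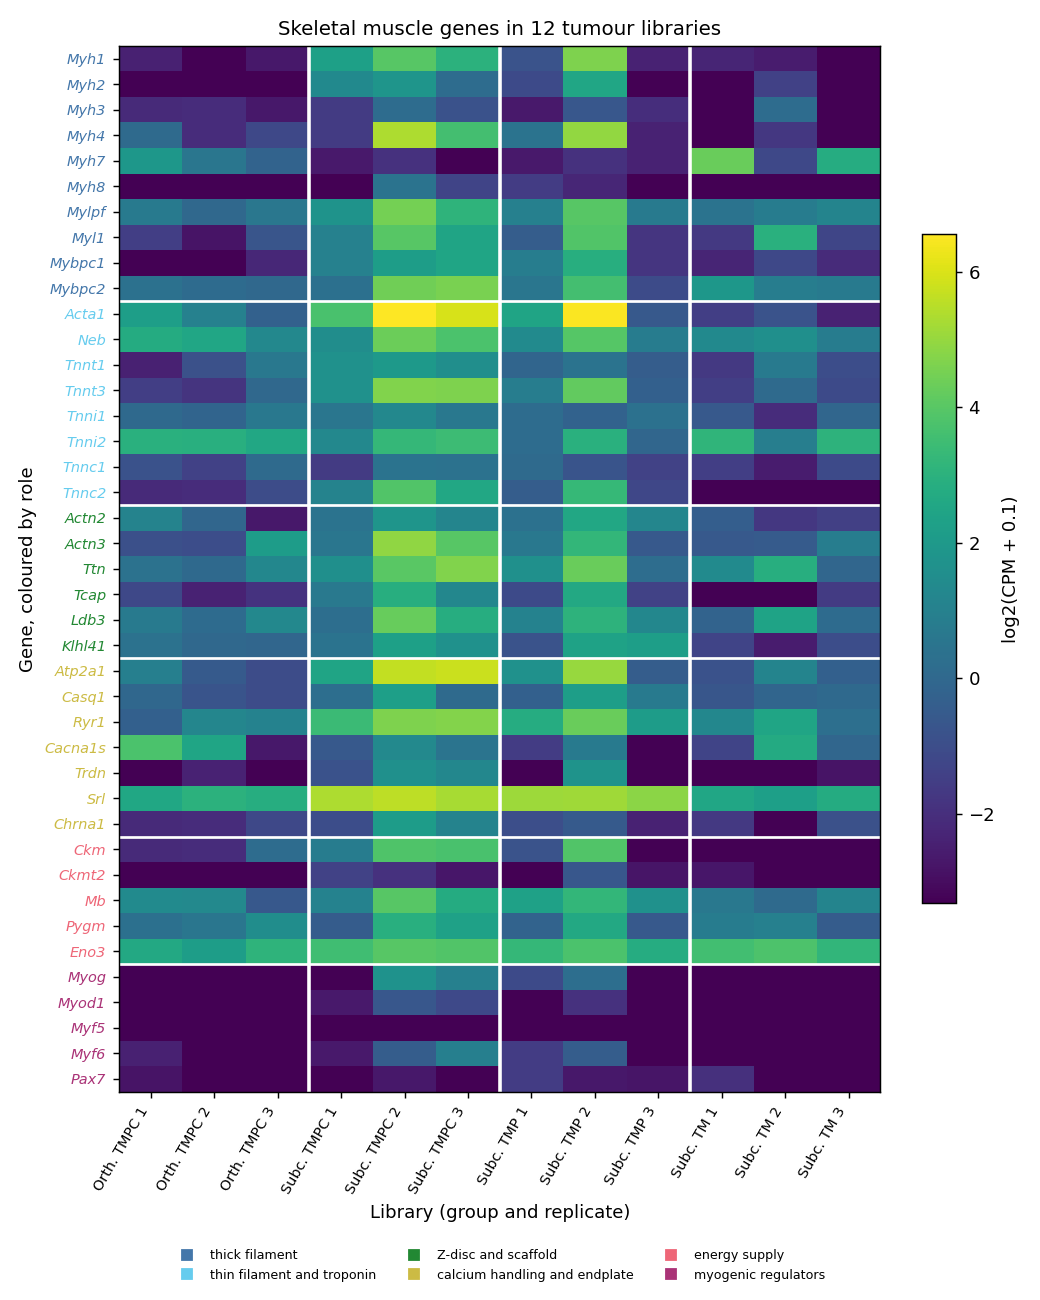
Level of each of the 41 genes (rows, coloured by role) in each library (columns), as log2(CPM + 0.1) on the colour scale. The bright columns are subcutaneous TMPC replicates 2 and 3 and TMP replicate 2, while the rows of Srl, Myh7, Cacna1s and Eno3 follow other patterns.

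Subcutaneous TMPC tumours were set against subcutaneous TM tumours first. Of 35 members with enough counts to be tested, 12 rose (34.3%) and 0 fell at an adjusted p under 0.05, where 35.8% of all 15277 genes tested were called, 18% higher and 17.8% lower. The 12 covered every role but the regulators: Myh1 and Mybpc1 of the thick filament, Acta1, Tnnc2 and Tnnt3 of the thin filament, Actn2, Tcap and Klhl41 of the Z-disc and scaffold, Atp2a1, Ryr1 and Srl of calcium handling, and Mb of the energy supply. The median log2 fold change was 2.74 over the 35 members tested, 2.82 over the 40 members with any count and -0.07 over all genes tested. The filter on low counts keeps a gene that is high in 1 group alone. These counts and medians, like those of the other comparisons and gene lists below, thus describe the genes and test nothing. Leaving out 1 library changed many of the calls, on members and over all genes. Over all genes, 5469 were called with all libraries, 3414 without subcutaneous TMPC replicate 2 and 3777 without TMPC replicate 3. The number was 4850 without TM replicate 1, 4794 without TM replicate 3, 4729 without TMPC replicate 1 and 6390 without TM replicate 2. Acta1 and Srl alone remained called without subcutaneous TMPC replicate 2, and Acta1, Srl and Tnnc2 without TMPC replicate 3. Without TM replicate 1 the calls were Actn2, Srl and Tnnc2, and without TM replicate 3 they were Srl, Tcap and Tnnc2. Without TMPC replicate 1 there were 16 called higher. Without TM replicate 2, high in adipocyte markers, 10 members were called higher, 8 of them among the 12, and Myh7 was called lower.

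Set against subcutaneous TM tumours, subcutaneous TMP tumours had 7 of 35 tested members higher (20%) and 0 lower, beside 27.7% of all genes called, 14.3% higher and 13.4% lower. A share of 20% is near the background. The 7 were Myh1, Mybpc1, Acta1, Tnnc2, Actn2, Klhl41 and Srl, each of which was also called for subcutaneous TMPC against TM tumours, a comparison that shares the TM libraries. The median log2 fold change was 1.88 over the members tested and -0.07 over all genes. Over all genes, 4239 were called with all libraries, 2132 without TMP replicate 2, 1550 without TMP replicate 1 and 3593 without TM replicate 3. The number was 3647 without TMPC replicate 3, 3610 without TM replicate 1, 3544 without TMPC replicate 2 and 4885 without TM replicate 2. Srl was the 1 member called higher without TMP replicate 2 and also without TM replicate 3. Actn2 and Srl remained without TMPC replicate 3 or without TM replicate 1, and Actn2, Klhl41 and Srl without TMP replicate 1. Without TMPC replicate 2 there were 4 called higher, and without TM replicate 2 there were 5, of which 4 were among the 7.

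No member was called between subcutaneous TMPC and subcutaneous TMP tumours by edgeR's quasi-likelihood test, which called 0% of the 15277 genes tested. At an unadjusted p under 0.05 it gave 465 genes, of which 1 was a member, and DESeq2 called 16 genes and 0 members. The fitted values of 32 of the 35 members lay above 0 and their median was 0.81 on the log2 scale, against 0.01 for all genes. The standard errors were wide: the log2 fold change was 0.80 ± 1.40 (SE) for Acta1 and 1.07 ± 1.35 (SE) for Tnnc2, and these became 4.26 and 3.91 without TMP replicate 2. Srl, with a narrow spread, had a log2 fold change of 0.35 ± 0.19 (SE).

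Orthotopic TMPC tumours had lower levels of 15 muscle genes than subcutaneous TMPC tumours. Of the 31 members tested, 15 fell (48.4%) and 1 rose (3.23%), where 27.8% of all 15123 genes tested were called, 13.8% lower and 14% higher. The 15 were Myh1, Myh2, Mylpf, Myl1, Mybpc1 and Mybpc2 of the thick filament, Acta1, Tnnc2 and Tnnt3 of the thin filament, Ttn and Tcap of the Z-disc and scaffold, Atp2a1, Ryr1 and Srl of calcium handling, and Ckm of the energy supply, and Myh7 rose. The median log2 fold change was -3.07 over the members tested, -3.41 over the 40 members with any count and 0.05 over all genes. Here too the filter keeps genes that are high in 1 group alone, so these counts and medians describe the members and test nothing. Here too leaving out 1 library changed many calls, on members and over all genes. Over all genes, 387 of 15402 were called without orthotopic replicate 2 and 1221 of 15308 without orthotopic replicate 1, against 4204 of 15123 with all libraries. The number was 1648 without subcutaneous TMPC replicate 2, 2094 without TMPC replicate 3, 3510 without TMPC replicate 1 and 4789 without orthotopic replicate 3. Only Myh1 and Srl remained called without orthotopic replicate 2, and 6 falls (Acta1, Atp2a1, Myh1, Myh2, Ryr1 and Srl) without orthotopic replicate 1. Without subcutaneous TMPC replicate 2 the 6 falls were Mybpc1, Myh1, Myh2, Ryr1, Srl and Tnnc2, and without TMPC replicate 3 Tcap joined these. The number of falls was 22 without subcutaneous TMPC replicate 1 and 17 without orthotopic replicate 3, which is high in liver markers. The rise of Myh7 was called with orthotopic replicate 3 left out and with none of the other 5 left out. Comparisons with subcutaneous TMPC tumours share their 3 libraries.

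**Figure D3:**
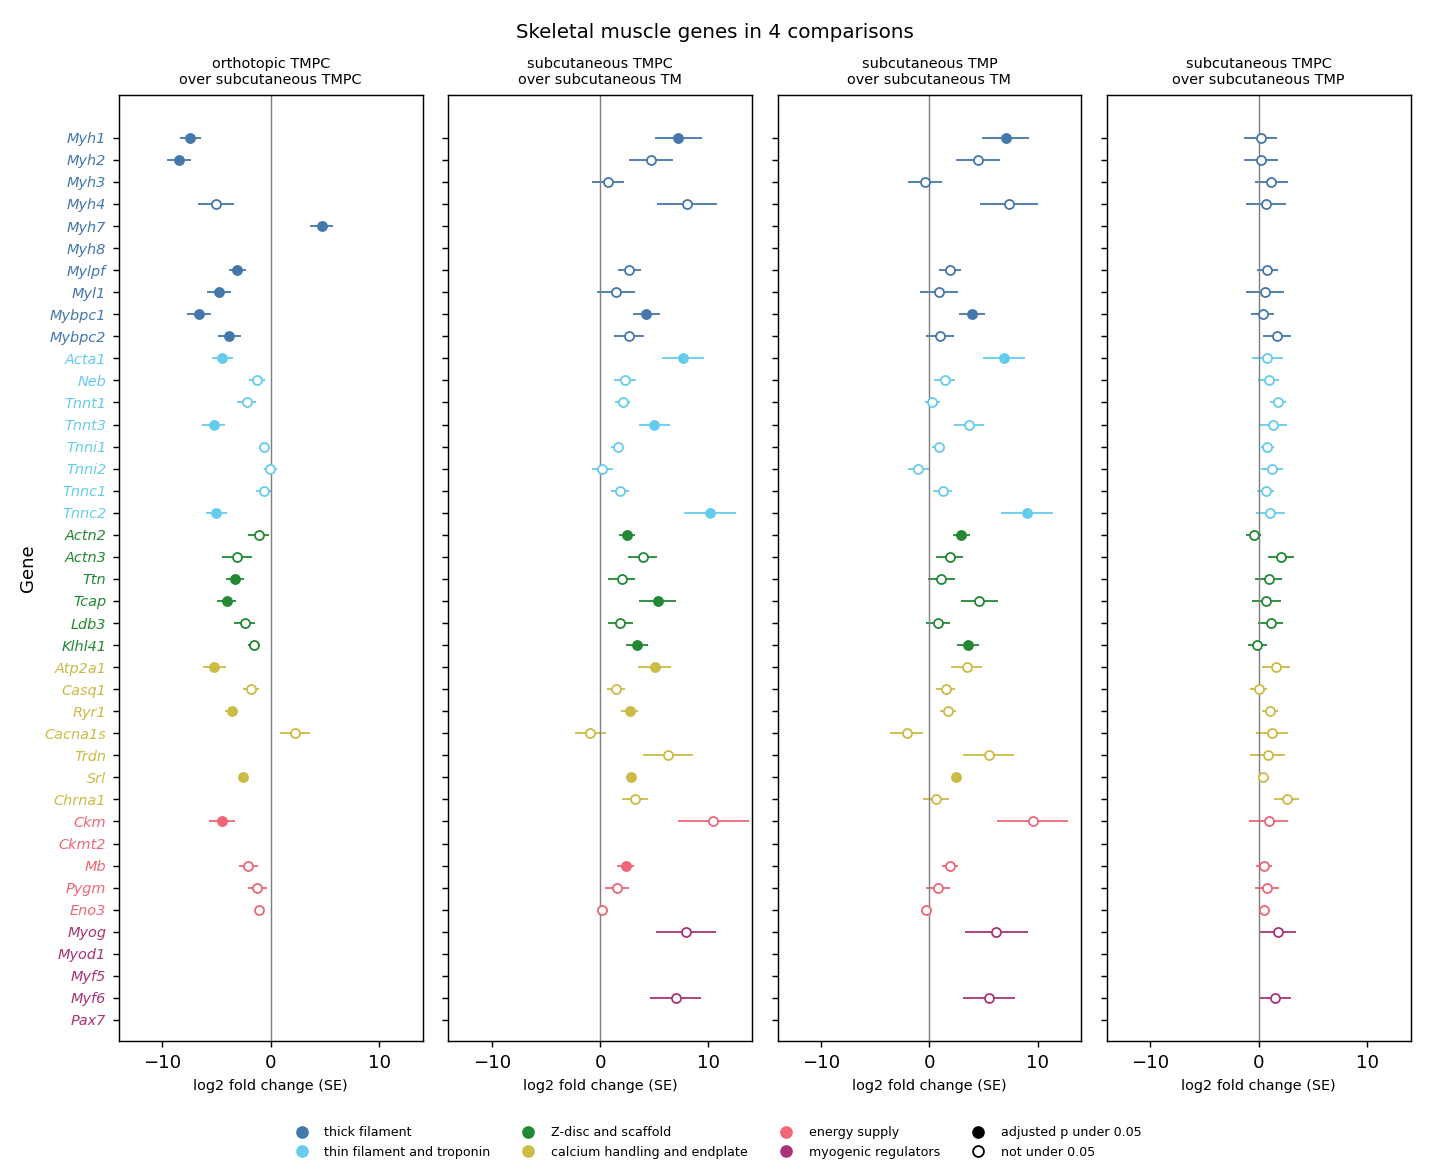
Log2 fold change with its SE (horizontal axis) for each tested gene (rows, coloured by role) in 4 comparisons, with filled points where the adjusted p was under 0.05. Points lie mostly left of 0 for orthotopic over subcutaneous TMPC tumours, where 15 fell and Myh7 rose, and mostly right of 0 against subcutaneous TM tumours.

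Among the thick filament genes, the fast myosin heavy chains Myh1 and Myh4 had their highest levels in the 3 muscle-high libraries. Myh1, a fast isoform, had 0.0852, 0 and 0.0565 CPM in orthotopic TMPC tumours, 4.79, 16.0 and 8.15 CPM in subcutaneous TMPC tumours, 0.481, 24.9 and 0.0948 CPM in subcutaneous TMP tumours and 0.104, 0.0690 and 0 CPM in subcutaneous TM tumours. It was above every other library in subcutaneous TMPC tumours and TMP replicate 2, and under 0.5 CPM in the other 8. Its log2 fold change was -7.43 ± 0.95 (SE, adjusted p = 0.00909) for orthotopic over subcutaneous TMPC tumours, 7.23 ± 2.18 for subcutaneous TMPC over TM and 7.06 ± 2.17 for subcutaneous TMP over TM, where the groups overlapped and the value became 2.20 without TMP replicate 2. Myh2, the isoform of fast oxidative fibres, had 0 CPM in all 3 orthotopic TMPC tumours, 2.48, 3.48 and 1.02 CPM in subcutaneous TMPC tumours, 0.361, 5.66 and 0 CPM in subcutaneous TMP tumours and 0, 0.276 and 0 CPM in subcutaneous TM tumours. With no count in 3 orthotopic libraries against counts in all 3 subcutaneous TMPC libraries, Myh2 was at least 48.5-fold lower in orthotopic tumours, taking 3 counts over the group as the floor (adjusted p = 0.014).

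Myh4, the fastest isoform, had 0.979, 0.136 and 0.339 CPM in orthotopic TMPC tumours, 0.231, 40.8 and 11.99 CPM in subcutaneous TMPC tumours, 1.26, 31.2 and 0.0948 CPM in subcutaneous TMP tumours and 0, 0.207 and 0 CPM in subcutaneous TM tumours. Without a replicate block (replicate number as a term of the fit), no comparison of Myh4 passed edgeR's threshold with all libraries. EdgeR with that block called Myh4 higher in subcutaneous TMPC than in TM tumours. DESeq2, without one, called it in all comparisons but subcutaneous TMPC over TMP. Single libraries of 11.99 to 40.8 CPM stood beside others of the same group under 1.30 CPM. Myh3 and Myh8, the embryonic and perinatal isoforms, stayed at or below 1.03 and 1.25 CPM in every library. Myh1, Myh2, Myh4 and Myh8 lie side by side on chromosome 11 and are closely similar in sequence, so reads can be split between them.

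Myh7, the myosin of slow fibres and of heart, went the other way. It had 3.66, 1.36 and 0.790 CPM in orthotopic TMPC tumours, 0.0577, 0.163 and 0 CPM in subcutaneous TMPC tumours, 0.0602, 0.165 and 0.0948 CPM in subcutaneous TMP tumours and 19.8, 0.345 and 6.77 CPM in subcutaneous TM tumours. TM replicates 1 and 3 were the highest and every subcutaneous TMPC and TMP library was at or below 0.165 CPM. Orthotopic and subcutaneous TMPC tumours did not overlap, with a log2 fold change of 4.69 ± 1.07 (SE, adjusted p = 0.024). In the fit of the subcutaneous libraries Myh7 did not pass the filter on low counts, and without that filter it was called lower in TMPC and in TMP than in TM tumours.

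The other thick filament genes were likewise highest in a subcutaneous TMPC or TMP library. Mylpf and Myl1 encode the light chains of fast myosin. Mylpf had 1.53, 0.904 and 1.41 CPM in orthotopic TMPC tumours, 3.23, 22.2 and 8.56 CPM in subcutaneous TMPC tumours, 1.86, 15.9 and 1.52 CPM in subcutaneous TMP tumours and 1.25, 1.66 and 2.12 CPM in subcutaneous TM tumours, and the TM and orthotopic ranges overlapped. Myl1 had 0.255, 0.0452 and 0.508 CPM in orthotopic TMPC tumours, 1.90, 16.0 and 5.38 CPM in subcutaneous TMPC tumours, 0.662, 14.4 and 0.190 CPM in subcutaneous TMP tumours and 0.208, 7.59 and 0.316 CPM in subcutaneous TM tumours, and TM replicate 2 was far above the other TM libraries. Their log2 fold changes for orthotopic over subcutaneous TMPC tumours were -3.07 ± 0.76 and -4.78 ± 1.12 (SE), with adjusted p of 0.0298 and 0.0257, and the groups did not overlap.

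Mybpc1 and Mybpc2 encode the slow and fast forms of myosin-binding protein C, which ties the thick filament together. Mybpc1 had 0, 0 and 0.113 CPM in orthotopic TMPC tumours, 1.90, 4.46 and 5.53 CPM in subcutaneous TMPC tumours, 1.74, 7.25 and 0.190 CPM in subcutaneous TMP tumours and 0.104, 0.345 and 0.135 CPM in subcutaneous TM tumours. It was near 0 in orthotopic and TM tumours and above 1 CPM in 5 of the other 6. Its log2 fold change was -6.60 ± 1.13 for orthotopic over subcutaneous TMPC, 4.28 ± 1.24 for subcutaneous TMPC over TM and 3.92 ± 1.23 for subcutaneous TMP over TM, the last becoming 2.29 without TMP replicate 2. Mybpc2 had 1.19, 0.995 and 0.903 CPM in orthotopic TMPC tumours, 1.15, 21.1 and 23.8 CPM in subcutaneous TMPC tumours, 1.38, 12.2 and 0.379 CPM in subcutaneous TMP tumours and 3.65, 1.72 and 1.58 CPM in subcutaneous TM tumours. Subcutaneous TMPC replicate 1 lay within the orthotopic range, so the groups overlapped although the fall of -3.82 ± 1.04 (SE) passed the threshold (adjusted p = 0.0392).

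The makeup of the 6 myosin heavy chain members differed between libraries with at least 50 counts over them. In subcutaneous TMPC replicate 2, Myh4 made up 65.0% of 1152 counts (95% Wilson interval 62.2 to 67.7%) and Myh1 25.5%. In subcutaneous TMPC replicate 3 the shares were 54.7% for Myh4 (49.9 to 59.3%) and 37.1% for Myh1, of 428 counts. In TMP replicate 2 they were 49.9% (47.0 to 52.8%) and 39.8%, of 1139 counts. These 3 libraries thus shared a fast makeup led by Myh4. Subcutaneous TMPC replicate 1 differed, with 61.5% Myh1 (53.1 to 69.3%), 31.9% Myh2 and 2.96% Myh4 of 135 counts. Myh7 made up 75.4% of 114 counts in orthotopic TMPC replicate 1 (66.8 to 82.4%), 99.5% of 382 counts in TM replicate 1 and 100% of 150 counts in TM replicate 3. The intervals, and the floors used for genes without counts, take in counting error alone, because copies made by PCR were not told apart by molecular tags.

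**Figure D4:**
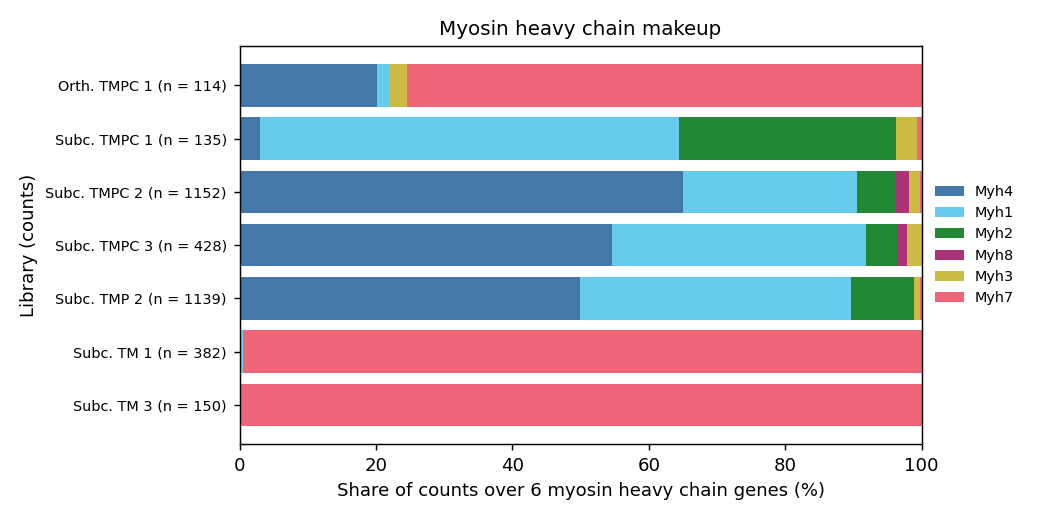
Share of counts (horizontal axis, percent) of 6 myosin heavy chain genes in the 7 libraries with at least 50 counts over them, with n giving those counts. Myh4 and Myh1 fill most of the bar in subcutaneous TMPC replicates 2 and 3 and TMP replicate 2, and Myh7 fills it in the TM libraries shown.

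Acta1, the actin of the skeletal muscle thin filament, whose upstream window holds a CArG box, was highest in the 3 muscle-high libraries. It had 4.60, 1.94 and 0.734 CPM in orthotopic TMPC tumours, 13.1, 94.2 and 63.0 CPM in subcutaneous TMPC tumours, 5.41, 90.9 and 0.569 CPM in subcutaneous TMP tumours and 0.260, 0.483 and 0.0903 CPM in subcutaneous TM tumours. It was above 13 CPM in all subcutaneous TMPC tumours and under 0.5 CPM in all TM tumours, whereas TMP tumours ran from 0.569 CPM, close to the TM range, to 90.9 CPM. The means were 2.43 ± 1.98 CPM in orthotopic TMPC tumours, 56.8 ± 40.9 CPM in subcutaneous TMPC tumours, 32.3 ± 50.8 CPM in subcutaneous TMP tumours and 0.278 ± 0.197 CPM in subcutaneous TM tumours (SD, n = 3 each). The log2 fold change was -4.46 ± 0.95 (SE, adjusted p = 0.0208) for orthotopic over subcutaneous TMPC, 7.65 ± 1.97 (SE, adjusted p = 0.0194) for subcutaneous TMPC over TM and 6.86 ± 1.92 (SE, adjusted p = 0.0329) for subcutaneous TMP over TM. The last of these became 3.44 without TMP replicate 2 and no longer passed the threshold.

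Tnnc2 encodes the calcium-binding subunit of fast troponin. It had 0.128, 0.136 and 0.395 CPM in orthotopic TMPC tumours, 2.02, 14.5 and 6.04 CPM in subcutaneous TMPC tumours, 0.662, 9.61 and 0.332 CPM in subcutaneous TMP tumours and 0 CPM in all 3 subcutaneous TM tumours. None of the TM libraries held a Tnnc2 count, while all 9 others did, and orthotopic tumours stayed under 0.4 CPM. Against 3 counts over the TM group, Tnnc2 was at least 142-fold higher in subcutaneous TMPC tumours (adjusted p = 0.0212) and at least 64.3-fold higher in subcutaneous TMP tumours (adjusted p = 0.0369), and the log2 fold change for orthotopic over subcutaneous TMPC tumours was -5.03 ± 0.95 (SE, adjusted p = 0.0159). Tnnc2 shares 592 exon bases with Ube2c, a cell cycle gene on the opposite strand. Ube2c had 1173, 1407 and 2148 counts in orthotopic TMPC tumours, 3169, 3666 and 3324 in subcutaneous TMPC tumours, 2826, 2874 and 3442 in TMP tumours and 643, 286 and 846 in TM tumours. By group, Ube2c was thus lower in orthotopic and TM tumours than in subcutaneous TMPC and TMP tumours, while TMP replicate 3 had 3442 counts of Ube2c and 7 of Tnnc2. The part of Ube2c reads in the Tnnc2 counts was not tested.

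Tnnt3, the fast form of the troponin subunit that binds tropomyosin, had 0.255, 0.181 and 0.903 CPM in orthotopic TMPC tumours, 3.11, 25.7 and 24.7 CPM in subcutaneous TMPC tumours, 1.74, 18.2 and 0.711 CPM in subcutaneous TMP tumours and 0.260, 0.966 and 0.361 CPM in subcutaneous TM tumours. Subcutaneous TMPC tumours lay above all orthotopic and TM tumours. The log2 fold change was -5.27 ± 1.07 (SE, adjusted p = 0.0184) for orthotopic over subcutaneous TMPC tumours and 5.01 ± 1.44 (SE, adjusted p = 0.0283) for subcutaneous TMPC over TM tumours. Neb, the giant protein that runs along the thin filament, had 6.73, 5.70 and 2.37 CPM in orthotopic TMPC tumours, 2.77, 20.4 and 13.6 CPM in subcutaneous TMPC tumours, 2.53, 15.2 and 1.66 CPM in subcutaneous TMP tumours and 2.45, 2.97 and 1.67 CPM in subcutaneous TM tumours. Orthotopic tumours overlapped with subcutaneous TMPC replicate 1, and edgeR called no comparison of Neb. DESeq2 called Neb higher in subcutaneous TMPC than in TM tumours, as did edgeR without TMP replicate 2.

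The remaining troponins did not pass edgeR's threshold with all libraries and no replicate block. DESeq2 called Tnnt1 and Tnni1 higher in subcutaneous TMPC than in TM tumours and Tnnt1 lower in orthotopic than in subcutaneous TMPC tumours. EdgeR called Tnnt1 likewise against TM tumours with a replicate block or without TM replicate 2. Between the sites it did so without orthotopic replicate 3. Tnni2, the fast inhibitory subunit, ranged from 5.93 to 7.71 CPM in orthotopic TMPC tumours, from 2.36 to 10.8 CPM in subcutaneous TMPC tumours, from 0.853 to 7.69 CPM in TMP tumours and from 1.79 to 8.75 CPM in TM tumours. It was thus present in tumours where Tnnc2 was at or near 0. The slow forms stayed low, with at most 3.81 CPM for Tnnt1, 2.34 CPM for Tnni1 and 1.25 CPM for Tnnc1 in any library. Per kb of exon, the level of Tnnt3 over that of Tnnt1 was 0.557 and 0.857 in orthotopic replicates 2 and 3, 1.42, 9.39 and 12.01 in subcutaneous TMPC tumours, 2.88, 20.04 and 1.49 in TMP tumours and 1.74, 0.847 and 1.24 in TM tumours, highest in the 3 muscle-high libraries. The ratio of Tnni2 to Tnni1 followed another order, at 19.8, 22.0 and 9.71 in orthotopic TMPC tumours, 4.11, 9.73 and 18.1 in subcutaneous TMPC tumours, 2.40, 24.0 and 1.73 in TMP tumours and 36.7 and 23.2 in TM replicates 1 and 3.

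At the Z-disc, Actn3 and Actn2 encode the alpha-actinins that anchor the thin filaments, Actn3 in fast fibres. Actn3 had 0.426, 0.407 and 4.35 CPM in orthotopic TMPC tumours, 1.38, 29.9 and 15.8 CPM in subcutaneous TMPC tumours, 1.44, 9.23 and 0.569 CPM in subcutaneous TMP tumours and 0.573, 0.621 and 1.72 CPM in subcutaneous TM tumours. It did not pass edgeR's threshold with all libraries, and orthotopic replicate 3 lay above subcutaneous TMPC replicate 1. DESeq2 called it for subcutaneous TMPC over TM tumours and between the sites. EdgeR called it for the first without TMPC replicate 1, TMP replicate 2 or TMP replicate 3. Between the sites edgeR called it without orthotopic replicate 3. Actn2 had 2.04, 0.859 and 0.0565 CPM in orthotopic TMPC tumours, 1.27, 3.43 and 2.15 CPM in subcutaneous TMPC tumours, 1.20, 5.99 and 2.23 CPM in subcutaneous TMP tumours and 0.677, 0.207 and 0.271 CPM in subcutaneous TM tumours. TM tumours lay below every TMPC and TMP subcutaneous tumour, and the log2 fold change was 2.48 ± 0.77 (SE, adjusted p = 0.0369) for subcutaneous TMPC over TM and 2.95 ± 0.78 (SE, adjusted p = 0.027) for subcutaneous TMP over TM.

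Ttn encodes titin, the molecular spring of the sarcomere, and Tcap its cap at the Z-disc. Ttn had 1.23, 0.949 and 2.26 CPM in orthotopic TMPC tumours, 2.94, 16.3 and 25.6 CPM in subcutaneous TMPC tumours, 3.01, 19.7 and 1.04 CPM in subcutaneous TMP tumours and 2.55, 7.24 and 0.858 CPM in subcutaneous TM tumours. Orthotopic tumours lay below all subcutaneous TMPC tumours (-3.27 ± 0.84 on the log2 scale, adjusted p = 0.0329), while TM replicate 2 overlapped with the TMPC range. Tcap had 0.341, 0.0904 and 0.169 CPM in orthotopic TMPC tumours, 1.499, 7.24 and 2.31 CPM in subcutaneous TMPC tumours, 0.361, 6.15 and 0.284 CPM in subcutaneous TMP tumours and 0, 0 and 0.226 CPM in subcutaneous TM tumours. Subcutaneous TMPC tumours were above all orthotopic and TM tumours, with a log2 fold change of -4.07 ± 0.86 for orthotopic over subcutaneous TMPC and 5.30 ± 1.70 for subcutaneous TMPC over TM. Without TM replicate 3 the other TM libraries held no Tcap count, so the fold there has no fixed size.

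Klhl41, a partner of nebulin that stabilises the sarcomere and has 4 E-boxes in its upstream window, was high in the 3 muscle-high libraries and in 1 further library. It had 1.23, 0.904 and 0.847 CPM in orthotopic TMPC tumours, 1.27, 4.84 and 3.12 CPM in subcutaneous TMPC tumours, 0.481, 5.05 and 4.55 CPM in subcutaneous TMP tumours and 0.313, 0.0690 and 0.406 CPM in subcutaneous TM tumours. TMP replicate 3, which was low for Acta1 and the myosins, had one of the highest levels of Klhl41. The log2 fold change was 3.42 ± 1.00 (SE, adjusted p = 0.0295) for subcutaneous TMPC over TM tumours and 3.56 ± 1.00 (SE, adjusted p = 0.0329) for subcutaneous TMP over TM tumours. Ldb3, a Z-disc protein also called ZASP, had 1.58, 0.995 and 2.31 CPM in orthotopic TMPC tumours, 1.10, 18.9 and 6.97 CPM in subcutaneous TMPC tumours, 1.99, 8.29 and 2.28 CPM in subcutaneous TMP tumours and 0.781, 5.24 and 0.993 CPM in subcutaneous TM tumours, and its groups overlapped in every comparison without a call by edgeR. DESeq2 called it between the sites, as did edgeR without subcutaneous TMPC replicate 1.

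Among the calcium handling genes, Srl varied little within a group and widely between groups. Srl encodes sarcalumenin, a calcium-binding protein of the sarcoplasmic reticulum. It had 5.75, 7.96 and 7.11 CPM in orthotopic TMPC tumours, 40.2, 47.0 and 38.0 CPM in subcutaneous TMPC tumours, 34.0, 35.04 and 28.5 CPM in subcutaneous TMP tumours and 5.68, 4.69 and 6.68 CPM in subcutaneous TM tumours. All 6 subcutaneous TMPC and TMP tumours lay between 28.5 and 47.0 CPM, and all 6 orthotopic and TM tumours between 4.69 and 7.96 CPM. The means were 6.94 ± 1.11 CPM in orthotopic TMPC tumours, 41.7 ± 4.68 CPM in subcutaneous TMPC tumours, 32.5 ± 3.503 CPM in subcutaneous TMP tumours and 5.68 ± 0.994 CPM in subcutaneous TM tumours (SD, n = 3 each). The log2 fold change was -2.52 ± 0.22 (SE, adjusted p = 0.0065) for orthotopic over subcutaneous TMPC tumours, 2.81 ± 0.20 (SE, adjusted p = 0.000537) for subcutaneous TMPC over TM and 2.46 ± 0.20 (SE, adjusted p = 0.00128) for subcutaneous TMP over TM. These calls held under every alternative tried, between -2.63 and -2.41, between 2.73 and 2.95, and between 2.36 and 2.59. TMP replicate 3 had 28.5 CPM of Srl with 0.569 CPM of Acta1 and no count of Ckm, so that Srl was high in a tumour low in sarcomere genes.

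**Figure D5:**
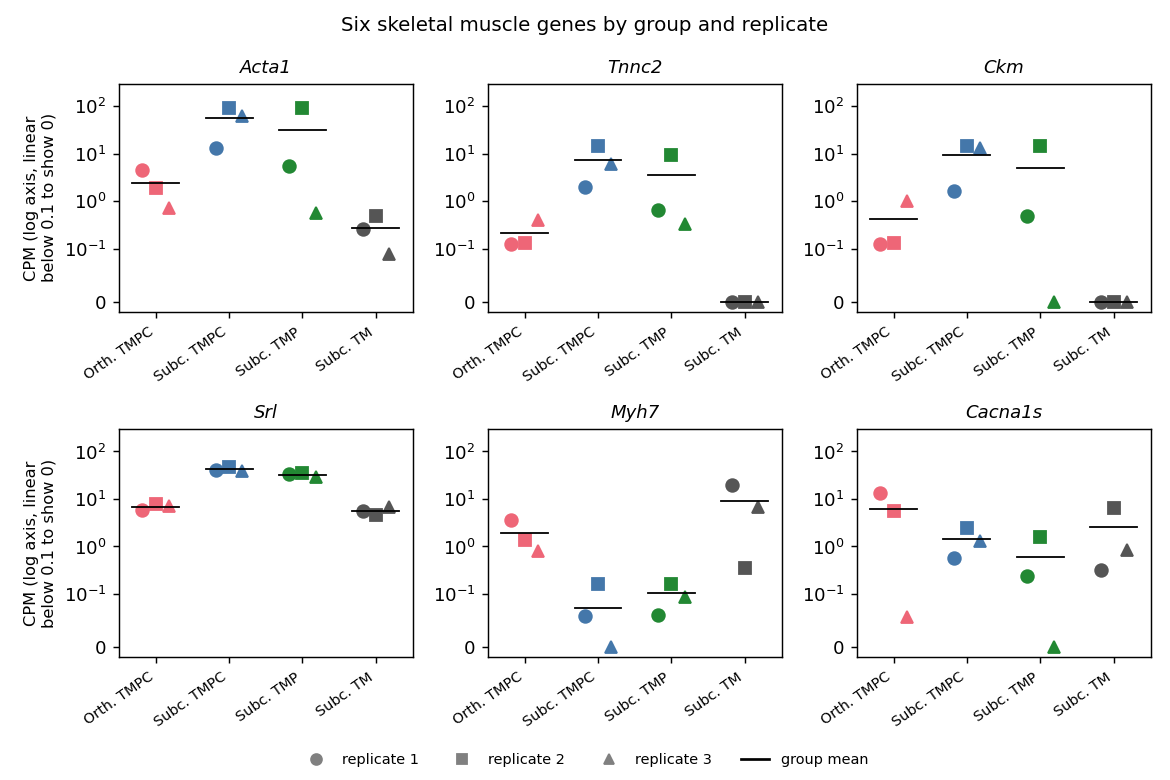
Level in CPM (vertical axis, log scale, linear below 0.1 to show 0) of 6 genes in each library, with symbols for replicates and a line at the group mean. Srl sets subcutaneous TMPC and TMP tumours above the rest with little spread, Acta1, Tnnc2 and Ckm spread widely within subcutaneous TMPC and TMP tumours, and Myh7 and Cacna1s are highest in other groups.

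Atp2a1, the pump that returns calcium to the sarcoplasmic reticulum of fast fibres, had 1.83, 0.588 and 0.395 CPM in orthotopic TMPC tumours, 5.36, 50.4 and 54.8 CPM in subcutaneous TMPC tumours, 3.07, 32.4 and 0.664 CPM in subcutaneous TMP tumours and 0.469, 2.07 and 0.722 CPM in subcutaneous TM tumours. Subcutaneous TMPC tumours lay above all orthotopic and TM tumours, and the log2 fold change was -5.20 ± 1.07 (SE, adjusted p = 0.0193) for orthotopic over subcutaneous TMPC and 5.02 ± 1.56 (SE, adjusted p = 0.0373) for subcutaneous TMPC over TM. Ryr1, the channel that releases calcium, had 0.724, 2.22 and 1.98 CPM in orthotopic TMPC tumours, 10.6, 25.3 and 26.4 CPM in subcutaneous TMPC tumours, 6.80, 19.6 and 4.36 CPM in subcutaneous TMP tumours and 2.29, 5.45 and 1.13 CPM in subcutaneous TM tumours. It was above 10 CPM in every subcutaneous TMPC tumour and below 2.3 CPM in every orthotopic one. Its log2 fold change was -3.60 ± 0.59 (SE, adjusted p = 0.0123) for orthotopic over subcutaneous TMPC, 2.74 ± 0.78 (SE, adjusted p = 0.0276) for subcutaneous TMPC over TM and 1.74 ± 0.76 (SE, adjusted p = 0.118) for subcutaneous TMP over TM, which is a call only without TM replicate 2.

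Cacna1s, the voltage sensor that opens Ryr1, is singled out here after its values were seen. It had 13.3, 5.47 and 0.0565 CPM in orthotopic TMPC tumours, 0.577, 2.39 and 1.28 CPM in subcutaneous TMPC tumours, 0.241, 1.59 and 0 CPM in subcutaneous TMP tumours and 0.313, 6.42 and 0.858 CPM in subcutaneous TM tumours. The highest levels were in orthotopic replicates 1 and 2 and TM replicate 2, none of them among the 3 muscle-high libraries, and no comparison was called, although Cacna1s was called higher in orthotopic than in subcutaneous TMPC tumours without orthotopic replicate 3. Cacna1s shares 1309 exon bases with an antisense gene, Gm37759. Casq1, the calcium store protein, reached at most 4.68 CPM, and Trdn, its anchor, at most 3.24 CPM. Chrna1, a subunit of the acetylcholine receptor of the endplate, reached at most 4.35 CPM, in subcutaneous TMPC replicate 2, and edgeR called none of the 3. DESeq2 called Chrna1 and Trdn both for subcutaneous TMPC over TM tumours and between the sites.

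For the energy supply, Ckm encodes the muscle creatine kinase. It had 0.128, 0.136 and 1.02 CPM in orthotopic TMPC tumours, 1.67, 14.3 and 13.1 CPM in subcutaneous TMPC tumours, 0.481, 14.7 and 0 CPM in subcutaneous TMP tumours and 0 CPM in all 3 subcutaneous TM tumours. All TM libraries and TMP replicate 3 held no Ckm count, while the 3 muscle-high libraries ranged from 13.1 to 14.7 CPM. The fall in orthotopic against subcutaneous TMPC tumours was -4.46 ± 1.19 (SE, adjusted p = 0.0374) on the log2 scale, and against 3 counts over the TM group Ckm was at least 184-fold higher in subcutaneous TMPC tumours, which missed the threshold (adjusted p = 0.0501) and was called without the filter on low counts. Mb, the oxygen store myoglobin, had 2.55, 2.44 and 0.565 CPM in orthotopic TMPC tumours, 1.96, 15.8 and 6.66 CPM in subcutaneous TMPC tumours, 4.99, 9.34 and 3.13 CPM in subcutaneous TMP tumours and 1.46, 0.966 and 2.12 CPM in subcutaneous TM tumours. Subcutaneous TMPC replicate 1 lay within the TM range, and the log2 fold change of 2.35 ± 0.77 (SE, adjusted p = 0.0444) for subcutaneous TMPC over TM became 1.501 without TMPC replicate 2.

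Eno3, the muscle form of enolase, was above 4 CPM in all 12 libraries. It had 6.13, 4.48 and 8.41 CPM in orthotopic TMPC tumours, 11.6, 15.6 and 14.7 CPM in subcutaneous TMPC tumours, 9.50, 13.3 and 6.92 CPM in subcutaneous TMP tumours and 11.8, 13.7 and 9.07 CPM in subcutaneous TM tumours. Orthotopic tumours lay below all subcutaneous TMPC and TM tumours, and edgeR called no comparison of Eno3. It was called between the sites by DESeq2, in edgeR's fit of all 12 libraries and without orthotopic replicate 3. Pygm, the muscle glycogen phosphorylase, ranged from 0.569 to 7.35 CPM over the 12 libraries. Ckmt2, the creatine kinase of muscle mitochondria, reached at most 0.549 CPM.

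The myogenic regulators had few counts, at most 58 for one gene in a library. Myog, which acts in differentiating myoblasts, had 0 counts in all orthotopic TMPC tumours, 0, 58 and 37 counts in subcutaneous TMPC tumours, 6, 20 and 0 counts in TMP tumours and 0 counts in all TM tumours. Subcutaneous TMPC replicates 2 and 3 and TMP replicate 2, the muscle-high libraries, thus held the most Myog, at 3.16, 1.90 and 1.10 CPM. In orthotopic TMPC tumours Myog was at least 36.3-fold lower than in subcutaneous TMPC tumours, a difference that the filter on low counts left out of edgeR's fit and that DESeq2 called. In subcutaneous TMPC tumours it was at least 32.0-fold higher than in TM tumours, which did not pass edgeR's threshold with all libraries (adjusted p = 0.0688). This difference was called by DESeq2 and by edgeR without TMPC replicate 1.

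Myod1, which acts earlier, had 1, 10 and 7 counts in subcutaneous TMPC tumours, 0, 3 and 0 in TMP tumours and none in the 6 orthotopic and TM tumours. Myf6, which is kept in mature fibres, had 2, 0 and 0 counts in orthotopic TMPC tumours, 1, 12 and 36 in subcutaneous TMPC tumours, 4, 12 and 0 in TMP tumours and none in TM tumours. DESeq2 called Myf6 for subcutaneous TMPC over TM tumours and between the sites, and edgeR with all libraries did not. Pax7, the marker of muscle stem cells, had at most 4 counts in a library, and Myf5 had none. A count of 0 allows a level of up to between 0.128 and 0.207 CPM, depending on the library.

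The other genes of skeletal muscle, from lists that do not hold the 41 members, gave a like picture in part. Of 27 other sarcomere genes in the table, 17 had the same 3 libraries on top, as did 5 of 18 other excitation and contraction genes, 2 of 13 metabolism genes and 0 of 9 myoblast and fusion genes. Over all genes the share was 1.35%. For subcutaneous TMPC over TM tumours, 8 of 22 tested sarcomere genes rose, Csrp3, Flnc, Lmod2 and Xirp2 among them, and 0 fell, where 18% of all genes were called higher and 17.8% lower. Their median log2 fold change was 2.98, beside -0.07 over all genes. Xirp2, an actin-binding protein of striated muscle, had 0.0426, 0.0452 and 0 CPM in orthotopic TMPC tumours, 1.27, 5.497 and 5.02 CPM in subcutaneous TMPC tumours, 1.02, 8.46 and 0.853 CPM in subcutaneous TMP tumours and 0 CPM in all 3 subcutaneous TM tumours. For orthotopic over subcutaneous TMPC tumours, 4 of 17 fell, Ankrd2 and Xirp2 among them, and 0 rose, where 13.8% of all genes were called lower and 14% higher. Their median log2 fold change was -1.41, beside 0.05 over all genes.

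For subcutaneous TMP over TM tumours, Csrp3, Lmod2 and Xirp2 rose and Myom3 fell among the 22, where 14.3% of all genes were called higher and 13.4% lower. Their median log2 fold change was 1.67. Lmod2, which controls the length of thin filaments, had 0.298, 1.72 and 0.339 CPM in orthotopic TMPC tumours, 0.461, 2.504 and 4.05 CPM in subcutaneous TMPC tumours, 4.39, 5.16 and 2.70 CPM in subcutaneous TMP tumours and 0.104, 0 and 0.0903 CPM in subcutaneous TM tumours, so TMP replicate 3 was high here too. By their highest CPM in any library the rule for named genes also takes Fbxo32, Flnc and Cmya5. Fbxo32, a ubiquitin ligase of muscle wasting that other tissues also express, had 225, 186 and 75.9 CPM in orthotopic TMPC tumours, 36.6, 73.9 and 120 CPM in subcutaneous TMPC tumours, 98.6, 87.7 and 127 CPM in subcutaneous TMP tumours and 165, 24.8 and 158 CPM in subcutaneous TM tumours and did not follow the members. Flnc, filamin C, had 13.3, 19.9 and 52.8 CPM in orthotopic TMPC tumours, 128, 19.3 and 21.2 CPM in subcutaneous TMPC tumours, 13.2, 28.4 and 26.4 CPM in subcutaneous TMP tumours and 9.95, 4.55 and 12.2 CPM in subcutaneous TM tumours, with its highest level in TMPC replicate 1, and Cmya5 reached 15.3 CPM in TMPC replicate 2.

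Of 14 excitation and contraction genes tested, Cacng1, Chrnd and Jph1 rose and Chrnb1 fell for subcutaneous TMPC over TM tumours, and Jph1 rose and Rapsn fell for subcutaneous TMP over TM tumours. Of all genes, 18% were called higher and 17.8% lower in the first comparison and 14.3% and 13.4% in the second. These counts are near or below those shares. The median log2 fold changes of this list were 1.19 and 0.77. Jph1, which links the plasma membrane to the sarcoplasmic reticulum, had 11.8, 13.1 and 7.40 CPM in orthotopic TMPC tumours, 13.0, 17.9 and 21.3 CPM in subcutaneous TMPC tumours, 19.9, 21.5 and 28.2 CPM in subcutaneous TMP tumours and 6.88, 1.86 and 6.68 CPM in subcutaneous TM tumours. Of 7 tested, Jph2 rose for orthotopic over subcutaneous TMPC tumours, where 14% of all genes were called higher. Jph2, the junctophilin of heart, had 20.6, 21.9 and 29.0 CPM in orthotopic TMPC tumours and 3.17, 8.60 and 9.32 CPM in subcutaneous TMPC tumours. Chrnb1, a subunit of the acetylcholine receptor, had 4.73, 6.64 and 8.25 CPM in subcutaneous TMPC tumours and 23.4, 8.14 and 19.9 CPM in subcutaneous TM tumours.

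Pfkm, the muscle phosphofructokinase, had 17.5, 22.7 and 22.1 CPM in orthotopic TMPC tumours, 72.6, 63.5 and 48.5 CPM in subcutaneous TMPC tumours, 44.5, 52.2 and 43.0 CPM in subcutaneous TMP tumours and 18.5, 17.2 and 22.5 CPM in subcutaneous TM tumours. It rose in subcutaneous TMPC and in subcutaneous TMP tumours against TM tumours and fell in orthotopic against subcutaneous TMPC tumours, with the 6 subcutaneous TMPC and TMP tumours all above the other 6, as for Srl. Art1 also rose for subcutaneous TMPC over TM tumours, and Apobec2 and Cox8b fell for orthotopic over subcutaneous TMPC tumours. Adssl1 was highest in TM replicate 2, at 39.7 CPM, and Phka1 ranged from 15.0 to 24.2 CPM, with no call by edgeR. Of 11 metabolism genes tested, 2 rose for subcutaneous TMPC over TM tumours and 1 for subcutaneous TMP over TM tumours, beside 18% and 14.3% of all genes. Between the sites 3 fell, beside 13.8% of all genes. The metabolism genes had median log2 fold changes between -0.09 and 0.46 over the 4 comparisons. Among 8 tested myoblast and fusion genes, Cdh15 rose for subcutaneous TMPC over TM tumours, where 18% of all genes were called higher. Of 7 tested between the sites, Cdh15 and Mef2c fell in orthotopic tumours, where 13.8% of all genes were called lower. Mef2c, a partner of the myogenic factors, had 17.8, 15.6 and 23.2 CPM in orthotopic TMPC tumours and 77.4, 101.2 and 40.7 CPM in subcutaneous TMPC tumours. It had 34.6, 63.0 and 44.3 CPM in subcutaneous TMP tumours and 19.5, 101.8 and 19.8 CPM in subcutaneous TM tumours, so TM replicate 2 was the highest. Megf10 reached 47.2 CPM in subcutaneous TMPC replicate 1, with no call by edgeR. No gene of these 4 lists was called between subcutaneous TMPC and TMP tumours.

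Markers of other cells were summed over each list in the same libraries. Smooth muscle markers, 14 genes, gave 737 to 1879 CPM in orthotopic TMPC tumours, 257 to 559 CPM in subcutaneous TMPC tumours, 399 to 505 CPM in TMP tumours and 291 to 474 CPM in TM tumours. In orthotopic against subcutaneous TMPC tumours 9 of 14 rose and 0 fell, where 14% of all genes were called higher and 13.8% lower. Apart from Myh7, the skeletal muscle members called between the sites thus fell where the smooth muscle markers called rose. This list includes Des and Casq2, which within subcutaneous TMPC and within TMP tumours were highest in the muscle-high libraries. Des had 54.2 and 71.3 CPM in TMPC replicates 2 and 3 and 32.1 CPM in TMP replicate 2. Casq2 had 3.86, 5.33 and 4.61 CPM there. Des was also high elsewhere, at 48.1 to 110 CPM in orthotopic TMPC tumours and 83.3 CPM in TM replicate 2. The part of skeletal muscle in the sums of this list was not tested. Heart markers, 11 genes, gave 15.5 to 39.2 CPM in orthotopic TMPC tumours, 8.99 to 22.9 CPM in subcutaneous TMPC tumours, 12.6 to 15.9 CPM in TMP tumours and 7.04 to 9.61 CPM in TM tumours, with Tnnt2 at up to 31.6 CPM and Tnni3 at up to 6.09 CPM. Genes of this list differed, with at most 11 counts of Myh6, 6 of Myl2 and 17 of Nppa in any library. Nppb, Myl7, Nkx2-5 and Tbx5 had at most 19 counts, while Tnni3 reached 143, Tnnt2 560, Ryr2 60 and Tbx20 44. Myh6 had 0 counts in TM replicates 1 and 3, where Myh7 was highest. The source of the Myh7 counts was not tested.

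Tendon markers, 7 genes, gave 48.9 to 62.8 CPM in orthotopic TMPC tumours, 76.8 to 147 CPM in subcutaneous TMPC tumours, 75.1 to 152 CPM in TMP tumours and 20.01 to 119 CPM in TM tumours. Adipocyte markers, 11 genes, gave 34.7 to 479 CPM in orthotopic TMPC tumours, 21.6 to 105 CPM in subcutaneous TMPC tumours, 24.5 to 218 CPM in TMP tumours and 19.4 to 8826 CPM in TM tumours. Skin keratinocyte markers, 8 genes in the table, ranged from 16.8 to 5847 CPM over the 12 libraries, Schwann cell and nerve markers, 9 genes, from 57.8 to 453 CPM, and pancreas acinar markers, 8 genes, from 2.48 to 391 CPM. None of these lists, nor those of epithelium, gastric epithelium, liver, heart or smooth muscle, had a gene with the 3 muscle-high libraries on top. Of all genes 1.35% did, so 0 in lists of 7 to 14 genes is near that share and sets them apart from no other genes. The part of other tissue in the levels of the members was not tested.

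Exons of 15 of the 41 members overlap another annotated gene, always on the opposite strand, in the mm10 annotation of GENCODE M21. As the use of strand in counting is not given in the sources used here, reads of these pairs cannot be told apart. Atp2a1 shares 763 bases with Rabep2, which had 344 to 863 counts in the 12 libraries, and Mb shares 64 bases with Apol6, which had 2642 counts in TM replicate 2. Myh7 shares 484 bases with Mhrt, which had 0 counts in all 12 libraries. Myh7 also shares 523 bases with Gm31251 and 142 bases with Gm29015, and Mb shares 412 bases with Gm49540. The counts of these partners are not given here. The other overlaps touch Mybpc1, Mybpc2, Myh1, Myh2, Neb, Ttn, Ryr1, Cacna1s, Casq1, Ckm, Ckmt2 and Tnnc2.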

How the data were processed

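Tumour RNA from 12 bulk libraries was analysed, and 2 single-cell samples of the series were left out. The submitters' processing notes name STAR 2.6.0, DESeq2 and the build mm10. How genes were counted, with which annotation and whether by strand, is not given in the sources used here. The deposited tables hold raw counts per gene and, per the file headers, the authors' DESeq2-normalized signal (counts divided by a size factor per library), which here serves to check the tables and as an alternative level. Gene symbols of one table were out of step with its counts at 12131 of 24421 entries and were taken by position from the other table, whose counts for the 3 shared libraries were equal.

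Counts were tested with edgeR 4.0.16 (R 4.3.3, TMM scaling, filterByExpr, quasi-likelihood F test) and Benjamini-Hochberg adjustment over all genes tested, with a threshold of 0.05. One fit held the 9 subcutaneous libraries (6 residual degrees of freedom) and another the 6 TMPC libraries (4). The SE is the log2 fold change over the square root of F, and CPM uses TMM factors over 12 libraries. DESeq2 1.42.0, RLE size factors, no filter, a replicate block, other sets of samples and leaving out each library were alternatives. An exact permutation of 3 against 3 libraries gives no p under 0.1, so none was run. Replicates of a group differed beyond sampling noise. Tests were checked on simulated counts. The 41 members and the lists were chosen with earlier results of these data known. Per-library values are given for members called in any comparison, the 3 of each role with the highest CPM and all regulators, and other muscle lists name their called genes and those with the highest CPM. Some genes that this rule takes from the other lists are not reported here.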

Additional observations from a re-analysis of the deposited data

How the results depend on the processing

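Only Srl was called under every alternative in both comparisons with subcutaneous TM tumours, and only Myh1 and Srl between the sites. RLE size factors changed no call on a member, no direction of a called member reversed, and summed levels from the deposited normalized counts ranked the libraries as CPM did. For subcutaneous TMP over TM tumours 7 members were higher and 0 lower, with 4239 genes called. DESeq2 gave 11 higher and 1 lower with 5776 genes, and a fit of only these groups 1 higher with 3248 genes. Without the filter 6 were higher and 1 lower, with 3816 genes. Leaving out 1 library gave 1 to 6 higher and 0 to 1 lower, with 1550 to 4885 genes. For subcutaneous TMPC over TM tumours 12 members were higher and 0 lower, with 5469 genes called. DESeq2 gave 22 higher and 1 lower with 6819 genes, and a fit of only these groups 13 higher with 3536 genes. Without the filter 13 were higher and 1 lower, with 5328 genes. Leaving out 1 library gave 2 to 17 higher and 0 to 1 lower, with 3414 to 6390 genes. Myh7 was the 1 member lower. For subcutaneous TMPC over TMP tumours DESeq2 called 16 genes against 0, and leaving out 1 library gave 0 to 0. For orthotopic over subcutaneous TMPC tumours, with 15 lower and 1 higher, DESeq2 gave 26 lower with 6343 genes called against 4204, and leaving out 1 library gave 2 to 22 lower, 0 to 2 higher and 387 to 4789 genes. Correlations of same-numbered deviations ran from -0.292 to 0.342. Differently numbered libraries were not correlated, so these values cannot decide whether replicate numbers pair the libraries. With a replicate block 2 members were higher for subcutaneous TMP over TM, with 3032 genes called. For subcutaneous TMPC over TM 12 were higher, with 4295 genes, and 9 of the 12 called without the block were kept. Actn2, Klhl41 and Mb were lost and Myh2, Myh4 and Tnnt1 gained. The block gave 0 genes for subcutaneous TMPC over TMP, and 7 members lower, 0 higher and 1777 genes between the sites. The causes of these shifts were not tested. Myod1, Pax7 and Myf5 had too few counts for a test, so differences in them were not detectable at this depth.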
